A study of Mus musculus with 4 samples.

Results

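The 10 genes described here are markers of neutrophils: the granule genes Prtn3, Elane, Mpo, Ngp, Camp, Ltf and Mmp8, the calprotectin genes S100a8 and S100a9, and Csf3r, the receptor gene for granulocyte colony-stimulating factor (G-CSF). They were picked by gene symbol, with earlier results of these arrays in view, from 18193 genes with a singly named probe set. All 10 were represented by a single probe set, so that no other probe set of a gene could serve as a check. Because the difference between treated and control livers entered the choice, the members' values are given as a description without a test.

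Pooled liver RNA was hybridised to 4 Affymetrix arrays of 1 colour. All mice carried floxed Met with a tamoxifen-activated Cre (Metff/ff:ERCre+/+ in the labels), acting in all tissues. In the delta MET + EGFRi group, tamoxifen was injected on 5 days (100 μl of 10 mg/ml) to delete exon 16 of Met, the receptor gene for hepatocyte growth factor. From 4 days later the mice ate canertinib, which blocks the EGF receptor (EGFR), at an intended 80 mg/kg/day, and livers were taken at day 7 and day 10 of that diet. Control littermates of the same genotype received corn oil alone, without tamoxifen or canertinib, and after the same rest their livers were taken at day 7 and day 10. Each group and day was 1 array, the number, age and sex of the pooled mice are not given in the sources used here, and the effects of Met loss, tamoxifen, canertinib and feeding cannot be told apart. With so few arrays, every value is imprecise.

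Neutrophils build their granules in order as they mature in the bone marrow. Promyelocytes make the primary (azurophil) granule proteins, the next stages make the secondary and tertiary granule proteins, and transcription of most granule genes has ended by the time the cell enters the blood. The calprotectin subunits S100A8 and S100A9 are cytosolic, and their transcripts, like that of the G-CSF receptor, are abundant in mature cells. Granule transcripts in a tissue are therefore read as a sign of immature cells, and calprotectin transcripts as a sign of mature neutrophils or activated monocytes, although other cells can make some of them.

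Promoter windows are shown for 2 pairs of neighbouring members: S100a8 and S100a9, whose signals were higher together, and Prtn3 and Elane, whose signals were not. Each window, from RefSeq on build GRCm38.p6, runs from 250 bases before to 50 bases after the annotated start. They lie at chr3:90668821-90669120 (plus strand), chr3:90695672-90695971 (minus strand), chr10:79879417-79879716 (plus strand) and chr10:79886062-79886361 (plus strand). Capitals mark matches, on either strand, to the C/EBP pattern TTNCNNAA and to the PU.1 core GAGGAA, letters bound by factors of the granulocyte lineage.
S100a8: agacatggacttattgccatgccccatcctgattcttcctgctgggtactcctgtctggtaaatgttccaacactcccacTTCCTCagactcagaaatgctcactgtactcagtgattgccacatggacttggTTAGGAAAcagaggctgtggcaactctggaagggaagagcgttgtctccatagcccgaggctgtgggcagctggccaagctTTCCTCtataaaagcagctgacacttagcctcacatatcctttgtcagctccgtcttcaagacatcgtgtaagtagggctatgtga
S100a9: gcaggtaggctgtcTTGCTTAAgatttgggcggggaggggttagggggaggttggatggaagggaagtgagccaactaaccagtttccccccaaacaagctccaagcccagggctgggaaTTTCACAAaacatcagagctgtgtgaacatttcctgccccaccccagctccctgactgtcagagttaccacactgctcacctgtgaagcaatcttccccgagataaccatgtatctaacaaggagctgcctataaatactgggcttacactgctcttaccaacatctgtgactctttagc
Prtn3: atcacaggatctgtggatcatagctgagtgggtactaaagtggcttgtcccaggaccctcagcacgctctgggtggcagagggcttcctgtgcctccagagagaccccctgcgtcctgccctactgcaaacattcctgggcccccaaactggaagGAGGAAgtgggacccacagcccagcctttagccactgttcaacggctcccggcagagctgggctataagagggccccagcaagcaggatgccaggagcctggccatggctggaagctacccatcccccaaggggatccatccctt
Elane: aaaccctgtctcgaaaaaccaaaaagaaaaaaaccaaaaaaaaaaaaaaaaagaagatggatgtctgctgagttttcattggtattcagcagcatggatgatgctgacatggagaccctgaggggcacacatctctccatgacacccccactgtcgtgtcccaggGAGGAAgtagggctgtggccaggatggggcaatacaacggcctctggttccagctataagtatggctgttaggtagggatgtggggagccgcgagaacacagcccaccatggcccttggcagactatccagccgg
The Prtn3 and Elane windows each held 1 PU.1 core, at positions -95 and -85 from the start, and no C/EBP match. The S100a8 window held 1 C/EBP match and 2 PU.1 cores, and the S100a9 window held 2 C/EBP matches and no PU.1 core. The C/EBP pattern was present in 5 of the 10 members' windows and in 40.7% of 32851 RefSeq windows of the same length, and the PU.1 core in 7 of the 10 and in 28.3% of all windows. The MYB pattern AACNG was in 10 of 10 and in 80.3% of all windows, the RUNX pattern TGTGGT in 2 of 10 and in 16.8%, and the STAT pattern TTCNNNGAA in 0 of 10 and in 8.3%. Overlaps between patterns were counted for each pattern. A match is a run of letters and not a shown binding site.

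The members did not move as a block. Prtn3, S100a8 and S100a9 were at least 6.19-fold higher in delta MET + EGFRi livers than in control livers at both days, Csf3r was higher to a lesser degree, and Elane, Mpo and Mmp8 differed by less than 2-fold at both days. Camp was too dim for a comparison. Ngp and Ltf were higher at day 7 and close to control at day 10. By a 2-fold size rule, 4 of 10 members were higher at day 7, where 6.05% of all 18193 genes were, and 4 of 10 at day 10, where 7.39% were. At both days 3 of 10 were, against 1.76% of all genes, and 0 of 10 were 2-fold lower at either day. Both treated arrays lay above both control arrays for 6 of 10 members, against 19.6% of all genes, and below them for 0 of 10, against 22.3%. As the members were chosen on this contrast, nothing is read from these shares.

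**Figure D1:**
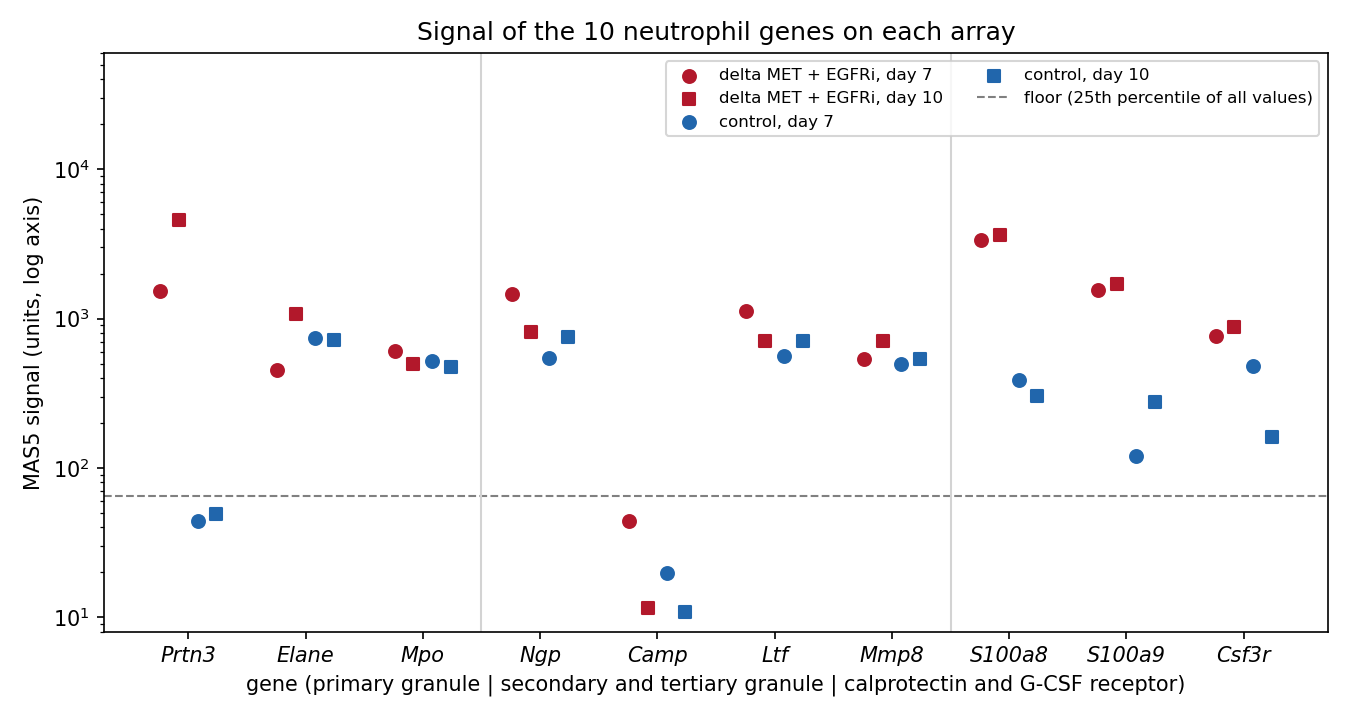
MAS5 signal (log axis) of each of the 10 genes on the 4 arrays, with delta MET + EGFRi arrays in red and control arrays in blue, day 7 as circles and day 10 as squares, and the floor of 64.8 as a dashed line. Prtn3, S100a8 and S100a9 show a wide gap between the groups, whereas Elane, Mpo and Mmp8 lie closer together and Camp lies under the floor.

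Among the primary granule genes, Prtn3 encodes proteinase 3, a serine protease. Its signal was 1540.9 at day 7 and 4543.7 at day 10 in delta MET + EGFRi livers, against 44.2 and 49.2 in control livers (MAS5 signal units on 1 array each). Both treated arrays were far above both control arrays, and the control signals lay under 64.8, the 25th percentile of all values, to which lower values were set before taking log2. Prtn3 was thus at least 23.8-fold higher at day 7 and at least 70.1-fold higher at day 10. The bound moved with that floor: the log2 differences at day 7 and day 10 were 4.57 and 6.13, and they were 5.12 and 6.53 with the floor at the 10th percentile and 3.43 and 4.99 with the floor at the 40th percentile. On the treated arrays its signal exceeded 90.7% of all probe sets at day 7 and 97.2% at day 10, and on the control arrays 19.4% and 21.4%.

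Elane, the neighbour of Prtn3 on chromosome 10, encodes neutrophil elastase, stored in the same granule. Its signal was 449.4 at day 7 and 1078.3 at day 10 in delta MET + EGFRi livers, against 738.7 and 724.4 in control livers. The treated arrays lay on either side of the control arrays, 0.608-fold at day 7 and 1.49-fold at day 10. Mpo encodes myeloperoxidase, which makes hypochlorous acid and is a defining primary granule enzyme. It had signals of 607.2 and 497.7 in delta MET + EGFRi livers and 524.1 and 474.5 in control livers, and the groups overlapped. The log2 difference of Prtn3 exceeded that of Elane by 5.29 at day 7 and 5.56 at day 10, and that of Mpo by 4.36 and 6.06. The probe set of Ctsg, the cathepsin G gene and another primary granule protease, was under the floor on all 4 arrays, at 39.4 and 29.9 in delta MET + EGFRi livers against 41.1 and 36.0 in control livers. That of Ms4a3, a marker of granulocyte-monocyte progenitors, had an adjusted p of 0.886 in the limma fit described below. Prtn3 was thus the only one of the 3 primary granule members that was 2-fold higher at either day.

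Among the secondary and tertiary granule genes, Ngp encodes a cystatin-like granule protein of mice. Its signal was 1465.2 at day 7 and 811.9 at day 10 in delta MET + EGFRi livers, against 546.7 and 756.7 in control livers, or 2.68-fold and 1.07-fold. Both treated arrays were above both control arrays, but at day 10 by little. Ltf encodes lactoferrin, an iron-binding protein. It had signals of 1116.7 and 702.9 in delta MET + EGFRi livers and 562.1 and 707.3 in control livers, which is 1.99-fold at day 7, just short of the 2-fold rule, and 0.994-fold at day 10. The rule was passed at day 7 under quantile normalization (log2 difference 1.03) and under scaling by medians (1.08). Both genes were highest on the treated array of day 7, and the remaining 3 arrays of each lay closer together.

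Mmp8 encodes neutrophil collagenase. Its signals were 534.0 and 710.2 in delta MET + EGFRi livers and 493.5 and 533.6 in control livers, so that the lower treated array and the higher control array all but touched. Camp, which encodes the antimicrobial peptide precursor cathelicidin, was under the floor on all 4 arrays, at 44.3 and 11.5 in delta MET + EGFRi livers and 19.8 and 10.9 in control livers, and no fold is given for it. It was the 1 member of 10 that did not pass the filter on dim genes, and no filter was applied to the member counts above.

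The calprotectin genes S100a8 and S100a9 are neighbours on chromosome 3 and encode the subunits of a calcium- and zinc-binding heterodimer that acts on TLR4. The S100a8 signal was 3352.5 at day 7 and 3656.0 at day 10 in delta MET + EGFRi livers, against 388.4 and 304.8 in control livers, or 8.63-fold and 12.0-fold. Its probe set carries the suffix s_at, by which Affymetrix marks probes shared between transcripts. The S100a9 signal was 1554.6 and 1701.5 in delta MET + EGFRi livers and 119.6 and 274.7 in control livers, or 13-fold and 6.19-fold. For both genes the treated arrays of the days were close to each other, differing on the log2 scale (day 10 minus day 7) by 0.12 for S100a8 and 0.13 for S100a9, while the control arrays differed by -0.35 for S100a8 and 1.20 for S100a9. S100a8 averaged 3504 ± 215 in delta MET + EGFRi livers and 346.6 ± 59.1 in control livers, and S100a9 1628 ± 104 and 197 ± 110 (SD, n = 2 each, days pooled). Both genes were chosen with this contrast in view, so that the gaps set beside the SD are no test. The smallest ratio of any treated array to any control array was 8.63 for S100a8 and 5.66 for S100a9. The change in the S100a9 fold between the days thus followed the control arrays.

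Csf3r was intermediate. Its signal was 765.0 at day 7 and 877.7 at day 10 in delta MET + EGFRi livers, against 481.3 and 162.2 in control livers. All 3 of S100a8, S100a9 and Csf3r had both treated arrays above both control arrays, as had 19.6% of all genes. The fold of Csf3r was 1.59 at day 7 and 5.41 at day 10, but the treated array of day 10 was 1.82-fold above the control array of day 7, so that the larger value rested on the low control array of day 10. Between the control arrays Csf3r differed by -1.57 (log2, day 10 minus day 7), and 2 of 10 members (S100a9 and Csf3r) differed 2-fold or more between those arrays, where 8.78% of all genes did. The ligand gene Csf3, which encodes G-CSF, had signals of 59.9 and 44.5 in delta MET + EGFRi livers and 58.0 and 68.7 in control livers, all at or near the floor.

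**Figure D2:**
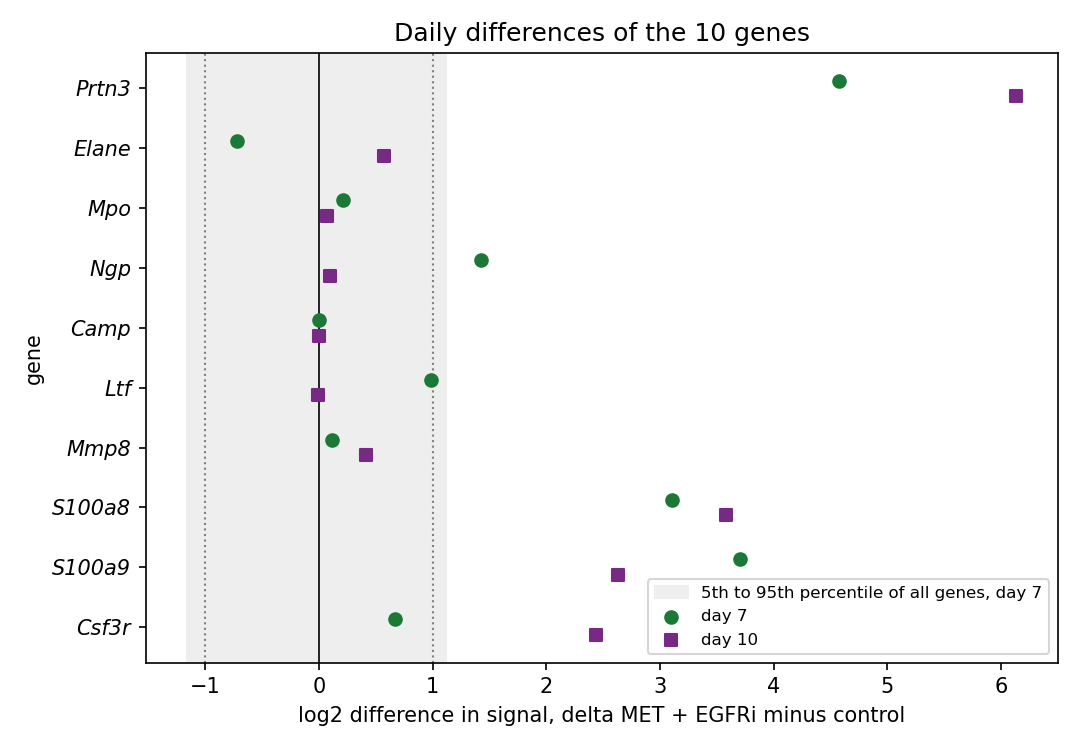
Log2 difference in signal, delta MET + EGFRi minus control, at day 7 (circles) and day 10 (squares) for each member, with dotted lines at the 2-fold rule and a grey band from the 5th to the 95th percentile of all genes at day 7 (-1.16 to 1.12). Prtn3 reaches 4.57 and 6.13, both calprotectin genes lie between 2.63 and 3.70, Elane, Mpo and Mmp8 stay inside the band at both days, and Camp is drawn at 0 because all its signals were under the floor.

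Day 10 was then set beside day 7 within each group, with 1 array a side and no test. In delta MET + EGFRi livers Prtn3 was higher at day 10 by 1.56 and Elane by 1.26 on the log2 scale, where 5.69% of all genes were 2-fold higher. Prtn3 and Elane were the 2 members past 2-fold, and in control livers Prtn3 was under the floor at both days and Elane differed by -0.03. Ngp and Ltf were lower at day 10 in delta MET + EGFRi livers, by -0.85 and -0.67, and higher in control livers, by 0.47 and 0.33. Mpo and Mmp8 went against the others of their granule class on the treated arrays, at -0.29 and 0.41 (day 10 minus day 7), so that the classes had no common order of days.

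**Figure D3:**
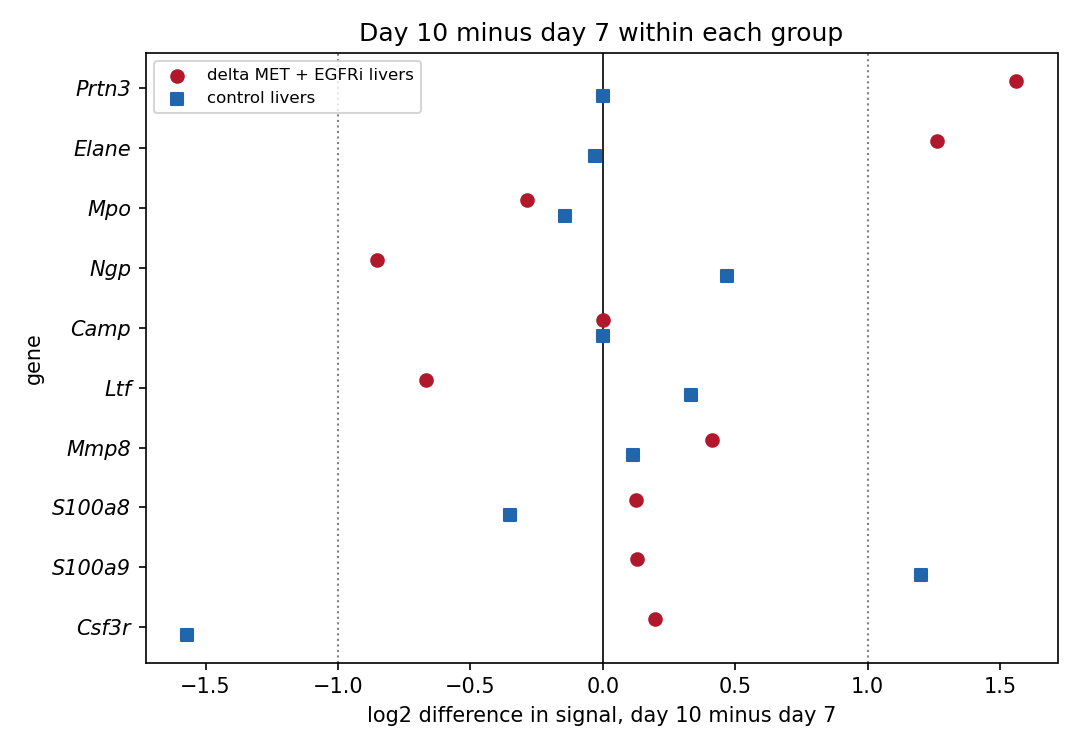
Log2 difference in signal, day 10 minus day 7, for each member in delta MET + EGFRi livers (red circles) and control livers (blue squares), with dotted lines at 2-fold. On the treated arrays Prtn3 and Elane lie to the right at 1.56 and 1.26 and Ngp and Ltf to the left, while S100a9 and Csf3r moved mainly on the control arrays, by 1.20 and -1.57.

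The profiles of the members were compared by the Euclidean distance over the 4 arrays between log2 signals, each taken relative to the mean of its control arrays. S100a8 and S100a9 lay 1.13 apart, Ngp and Ltf 0.42 apart, S100a8 and Prtn3 3.02 apart, and Prtn3 and Elane 7.67 apart. Outside the members, the nearest genes were sought among those above the filter on dim genes, passing over placeholder names such as Gm, Rik and LOC. The 5 nearest to S100a8 were Igfbp1, an insulin-like growth factor binding protein (distance 0.44), Fgl1, a fibrinogen-like hepatokine (0.48), Wbp2nl (0.48), the antibody joining chain Jchain (0.60) and the protease inhibitor Serpina3n (0.65). The 5 nearest to Prtn3 were the metallothioneins Mt2 (0.59) and Mt1 (0.88), the acute phase genes Saa2 (1.09) and Orm2 (1.52) and the interleukin 1 receptor Il1r1 (1.64). As the control signals of Prtn3 were under the floor, its distances and nearest genes depend on the floor chosen, and they are given for the main floor alone. All these distances rest on 4 arrays and take in the size of the difference from control as well as its pattern over the arrays.

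Related genes were then read from a comparison of delta MET + EGFRi and control livers over both days with limma, 2 arrays a group, on all 11993 genes with a mean log2 signal above the median of all probe sets. The members above that filter are among them, and no test of theirs is given. At a Benjamini-Hochberg adjusted p under 0.05, 45 genes rose (0.375%) and 34 fell (0.283%), and p-values measure the spread between these arrays, days included. In 7 lists of genes related to neutrophils, 101 genes were listed, 85 had a singly named probe set and 58 passed the filter on dim genes. Of these 58, 5 rose and 0 fell, with 22 higher and 1 lower at an unadjusted p under 0.05, where 5.93% of all genes above the filter were higher and 6.15% lower. The 5 were Lcn2, Cebpb, Cebpd, Icam1 and Serpina3n, and each was lost without the filter on dim genes (adjusted p from 0.11 to 0.304). With day as a block Lcn2 alone passed (adjusted p = 0.0438), and without an intensity trend likewise (adjusted p = 0.0378). The median log2 difference of the 58 genes was 0.30 at day 7 and 0.52 at day 10, against -0.06 and 0.01 over all genes above the filter. As these lists and those below were chosen with earlier results of these data known, nothing is read from their shares or medians.

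Of 8 other granule genes above the filter, 1 rose. Lcn2, an iron-siderophore binding protein of secondary granules that hepatocytes also secrete, had signals of 30635.8 and 66001.6 in delta MET + EGFRi livers against 755.1 and 199.0 in control livers (log2 difference 6.86 ± 0.65 SE, limma adjusted p = 0.0132). Ctsc, the cathepsin that activates granule serine proteases, had a log2 difference of 1.44 ± 0.27 and did not pass (adjusted p = 0.11). The lysozyme genes Lyz2 (0.52) and Lyz1 (0.69) did not pass either (adjusted p = 0.573 and 0.665), and as close copies they can share probes. The median log2 difference of the 8 genes was 0.38 on day 7 and 0.61 on day 10.

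Of 8 mature neutrophil genes above the filter, 0 passed by limma, with 2 higher and 1 lower at an unadjusted p under 0.05. Csf2rb, the shared beta chain of receptors for myeloid growth factors, had a log2 difference of 1.57 ± 0.27 (adjusted p = 0.0785), Alox5ap, which serves leukotriene synthesis, 1.27 ± 0.28 (adjusted p = 0.151), and the myeloid lectin Cd33 -1.08 ± 0.34 (adjusted p = 0.298). The 8 genes had a median of 0.11 on day 7 and 0.20 on day 10. Cxcr2, the chemokine receptor that defines mature neutrophils, had signals of 143.2 and 98.5 in delta MET + EGFRi livers and 151.0 and 137.6 in control livers, under the filter. Hdc, Padi4 and Ltb4r1 were under the floor on all 4 arrays. Genes under the floor on all arrays carry no comparison. Il1r2, the decoy receptor for interleukin 1 and also under the filter, had 297.6 and 388.1 in delta MET + EGFRi livers against 194.5 and 38.3 in control livers, with both treated arrays above both control arrays. Ly6g, Fpr1 and Retnlg were not analysed here.

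Of 10 genes above the filter for the NADPH oxidase, integrins and Fc receptors, 10 were higher at both days, where 26.7% of all genes above the filter were, and 0 passed by limma, with 9 higher at an unadjusted p under 0.05 (5.93% of all genes above the filter). Cyba, the small subunit of the oxidase's membrane core, had a log2 difference of 2.87 ± 0.62 (adjusted p = 0.15), Itgal, an integrin of leukocytes, 1.27 ± 0.27 (adjusted p = 0.15) and the Fc receptor Fcgr3 1.24 ± 0.39 (adjusted p = 0.294). Medians were 0.74 on day 7 and 1.30 on day 10. Under the filter, the integrin gene Itgam had signals of 234.1 and 87.0 in delta MET + EGFRi livers and 163.4 and 140.8 in control livers, which overlapped, and the coronin gene Coro1a had 364.2 and 347.1 against 205.5 and 35.6. Macrophages express most of these genes as well.

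Of 9 regulators of granulocyte formation above the filter, 2 rose. They were the transcription factors Cebpb, used in emergency granulocyte formation and in the acute phase response of hepatocytes (log2 difference 1.58 ± 0.20, limma adjusted p = 0.0307), and Cebpd (2.06 ± 0.23, adjusted p = 0.0226). Another probe set of each gene gave a smaller difference that did not pass in a fit over probe sets, 0.98 for Cebpb (adjusted p = 0.229) and 0.77 for Cebpd (adjusted p = 0.646). Neither passed when a control array was left out, at adjusted p of 0.259 and 0.325 for Cebpb and 0.144 and 0.141 for Cebpd. Socs3, the feedback inhibitor of STAT3 signalling (3.05 ± 0.69, adjusted p = 0.164), Stat3 itself (1.47 ± 0.26, adjusted p = 0.0865) and Spi1, which encodes PU.1 (0.20 ± 0.23, adjusted p = 0.773), did not pass. Gfi1 and Myb, regulators of early granulocyte precursors, were under the floor on all 4 arrays.

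Calprotectin receptors and other S100 genes gave 0 calls by limma among 8 genes, with 1 higher at an unadjusted p under 0.05. Cd14, the co-receptor of TLR4, had a log2 difference of 1.32 ± 0.21 (adjusted p = 0.0641), while the lipid scavenger receptor Cd36 had 0.30 (adjusted p = 0.75) and S100a10 -0.20 (adjusted p = 0.73). Tlr4, the receptor itself, had signals of 401.0 and 472.6 in delta MET + EGFRi livers and 417.6 and 538.4 in control livers (adjusted p = 0.887). Medians were -0.11 on day 7 and 0.12 on day 10.

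Of 8 attractant and adhesion genes above the filter, 1 rose, the endothelial adhesion molecule Icam1 (log2 difference 1.62 ± 0.22, limma adjusted p = 0.0421). It did not pass without either control array (adjusted p = 0.226 and 0.244). Cxcl1, a neutrophil chemokine, had 2.40 ± 0.38 (adjusted p = 0.064), Vcam1 0.95 ± 0.25 (adjusted p = 0.226) and Il1b 0.58 ± 0.25 (adjusted p = 0.423), and Cxcl3 was under the floor on all 4 arrays. Medians were 0.77 on day 7 and 0.51 on day 10. Of 7 inhibitors of neutrophil proteases 1 rose, Serpina3n, which blocks cathepsin G (3.15 ± 0.38, adjusted p = 0.0277, and 0.0793 and 0.221 without either control array). Serpina1c, an alpha-1 antitrypsin gene whose close copies can share probes, had log2 differences of 0.12 at day 7 and 0.24 at day 10 (adjusted p = 0.78). Medians of the inhibitors were 0.05 on day 7 and 0.24 on day 10, and Serpinb1a, a serpin that inhibits elastase and proteinase 3, was under the floor on all 4 arrays.

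**Figure D4:**
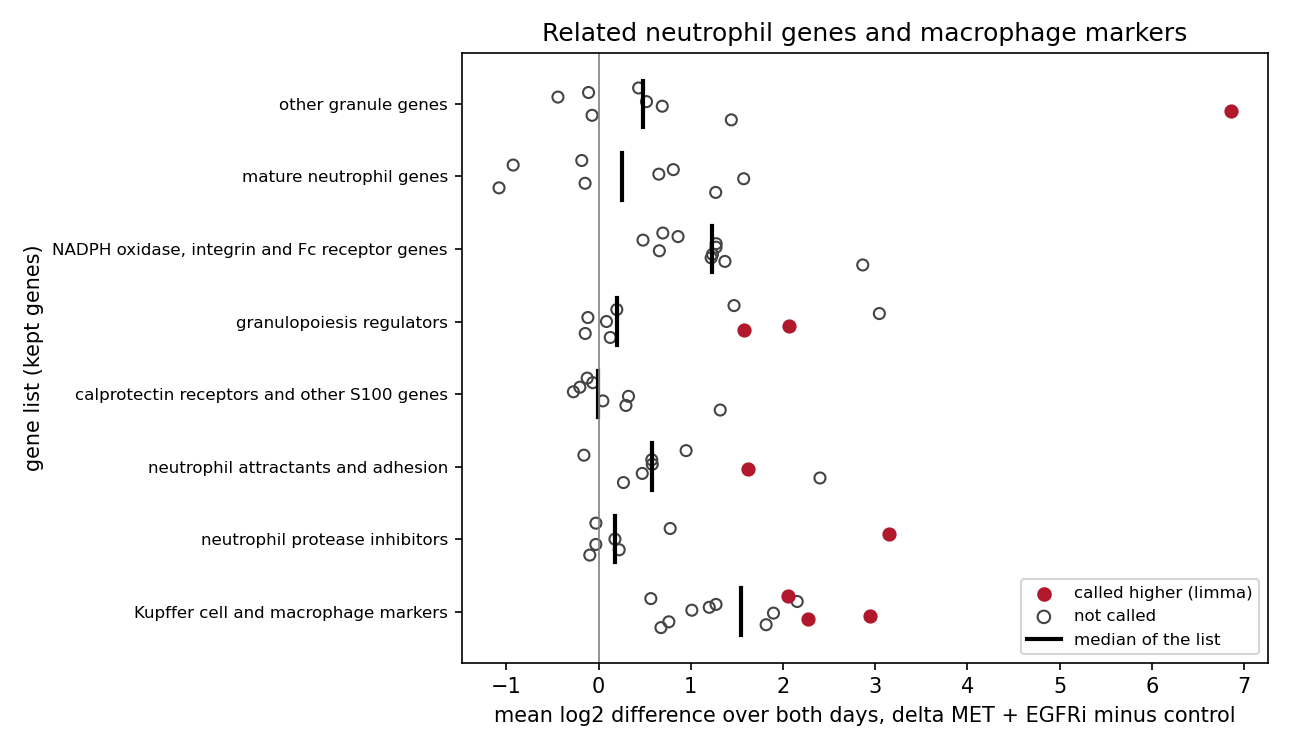
Mean log2 difference over both days, delta MET + EGFRi minus control, of every gene above the filter in the 7 related lists and in the macrophage list, with genes called by limma filled, others open, and the list's median as a bar. Lcn2 stands apart at 6.86, and the oxidase and macrophage lists lie wholly to the right of 0.

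Markers of macrophages were higher on the same arrays as the calprotectin genes. All 12 Kupffer cell and macrophage markers were higher in delta MET + EGFRi livers at both days, where 26.7% of all genes above the filter were. Of the 12, 3 rose (Cd163, Vsig4 and C1qc, limma adjusted p = 0.0174, 0.0193 and 0.0302), against 0.375% of all genes above the filter. At an unadjusted p under 0.05, 10 were higher, against 5.93%. These 3 did not pass when a control array was left out (adjusted p from 0.0643 to 0.218), and with day as a block Cd163 passed (adjusted p = 0.0207) while Vsig4 and C1qc did not (0.0518 each). The summed signal of all 12 markers was 48906.5 at day 7 and 49700.8 at day 10 in delta MET + EGFRi livers, against 21439.8 and 12111.1 in control livers, and 0 of the 12 lay under the floor on all 4 arrays. Monocytes and activated macrophages can express S100a8, S100a9 and Csf3r, and the part of macrophages in their signals was not tested. In bulk tissue, more cells of a type and more RNA per cell cannot be told apart. Among 36 genes above the filter in the 9 other marker lists (monocytes, other granulocytes, erythroid cells, platelets, progenitors, proliferation, lymphocytes and hepatocytes), limma called 0, with 6 higher and 2 lower at an unadjusted p under 0.05, against 5.93% and 6.15% of all genes above the filter. Of the 4 monocyte markers above the filter, Plac8 (log2 differences 0.95 at day 7 and 1.12 at day 10, limma adjusted p = 0.142) and F13a1 (0.59 and 0.76, adjusted p = 0.541) were higher, and Ms4a4c (-1.78 and -0.0047, adjusted p = 0.536) and the receptor gene Ccr2 were lower, with none called. Ccr2 had signals of 157.1 and 223.1 in delta MET + EGFRi livers and 542.4 and 231.5 in control livers. Albumin (Alb), which defines hepatocytes, had 78531.5 and 74100.5 in delta MET + EGFRi livers and 75758.2 and 71295.3 in control livers. These Alb signals lay near the highest signal of each array (79871.9 to 89171.6). Of the 8 hepatocyte markers, 4 had both treated arrays above both control arrays (19.6% of all genes) and 0 had them below (22.3%). Log2 differences at day 7 and day 10 were 1.10 and 0.63 for Hnf4a, 0.58 and 0.80 for Fgb, and 0.90 and 0.46 for Apob (limma adjusted p = 0.212, 0.329 and 0.299).

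The signals of 474.5 to 738.7 units of Elane, Mpo, Ltf and Mmp8 in control livers lay above 71.1% to 80.4% of all probe sets. On the same arrays the B cell factor gene Pax5 had 911.5 and 816.2 in delta MET + EGFRi livers against 1742.7 and 1286.9 in control livers, and the erythroid factor gene Klf1 had 615.2 and 417.6 against 648.8 and 454.8. Detection calls were not used here, and whether such signals exceed the background of their own probes was not tested.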

How the data were processed

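Liver RNA pooled by group and day was measured on 4 Affymetrix arrays. Per the submitters' processing notes the authors used MAS5, and the deposited values are linear intensity (signal) per probe set, with a mean after trimming 2% at each end of 500 on every array, and no version is given in the sources used here. Between arrays, Pearson's r of log2 signals was 0.923 to 0.948. Of 45037 non-control probe sets, the platform annotation gave 34945 a single symbol, and these made 18193 genes. Signals under the 25th percentile (64.8) were raised to that value before the log2, and the brightest probe set represented a gene. Genes above the median of all probe sets (log2 7.67) were tested with limma 3.58.1 in R 4.3.3 (lmFit, two-sided, eBayes with a trend on intensity, adjusted by Benjamini-Hochberg), which was tested on simulated data. Log2 differences are delta MET + EGFRi minus control, with limma's SE, and single days have 1 array a side and no test.

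The members and lists were chosen with earlier results of these data known. Named were all members, each list's called genes, up to 3 further genes with the largest smaller daily difference of one sign, markers under the floor and the nearest profiles. A few others (Ms4a3, Cxcr2, Il1r2, Itgam, Coro1a, Tlr4, Csf3, Ccr2, Alb, Pax5, Klf1 and those of the closing section) were named after their values were seen. Promoters are from RefSeq (GRCm38.p6), with 10 of 10 members matched by symbol. Plots used matplotlib 3.10.9 (Python 3.11.15). Alternatives were other scalings, floors, filters and size rules, the mean of probe sets, no trend, day as a block and each array left out.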

Additional observations from a re-analysis of the deposited data

Results flagged for a closer look

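For 2 members the sign of the difference between delta MET + EGFRi and control livers turned between the days, with 1 pair of arrays a day, so that the change itself was not tested. Elane had log2 differences of -0.72 on day 7 and 0.57 on day 10, a change of 1.29. Ltf had 0.99 on day 7 and -0.01 on day 10, a change of -0.999.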

How the results depend on the processing

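The number of members 2-fold higher stayed at 4 or 5 at day 7 and at 4 at day 10 under other scalings and floors, and was 6 and 4 with a 1.5-fold and 3 and 4 with a 3-fold rule. Of 90 recomputed member values 85 stayed within the spread between arrays, and 5, of Prtn3 and Camp, reached or passed it. A value with an array left out cannot move by more than that spread, so that those values are no check. The spread of Camp was 0 because all its signals were under the floor. The sign changed in 2 of the 90 values, both without the treated array of day 7. Elane had 0.56 in place of -0.07 and Mpo -0.0028 in place of 0.14 (mean log2 difference), and 0 members that were 2-fold apart changed sign. All calls by limma were lost without a filter on dim genes, with 0 genes higher, 0 lower and 0 related neutrophil genes called (at an unadjusted p under 0.05, 907 higher and 1011 lower). That fit takes in 1408 genes under the floor on all 4 arrays, and the cause was not tested. Against 45 genes called higher, the count was 22 with the mean of probe sets, 23 without the trend, 24 with day as a block and 93 at an adjusted p under 0.1. Against 34 called lower it was 20, 19, 23 and 69 in the same settings. Against 5 related genes called higher it was 2, 1, 1 and 9. Leaving out each array gave 13 to 197 genes called higher, 9 to 269 called lower and 1 to 12 related genes. The counts without a control array (17 and 13 higher) were the low ones and those without a treated array (197 and 174 higher) the high ones. The lone array is then assumed to vary like the other group. No paired analysis was possible by replicate number because the labels number no replicates, and days served as the block. Signal over background is unknown without detection calls, which limits what the flat granule genes show.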

Other observations

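Some genes of the granule and mature neutrophil lists that lay under the filter on dim genes were also higher in delta MET + EGFRi livers, not all of them at both days. They were named after their values were seen. Chil3, a chitinase-like protein of neutrophil granules and macrophages in mice, had signals of 661.1 at day 7 and 122.8 at day 10 in delta MET + EGFRi livers against 5.5 and 8.5 in control livers. This is at least 10.2-fold and at least 1.90-fold, as the control signals lay under the floor. Pglyrp1, a peptidoglycan-binding granule protein, had 154.2 and 148.8 against 24.9 and 26.6, at least 2.38-fold and 2.30-fold. Stfa2l1, a stefin of mouse neutrophils, had 146.3 and 18.6 against 14.4 and 15.3, so that it was over the floor on the treated array of day 7 alone. The signals of Chil3 and Stfa2l1, like those of Ngp and Ltf, were highest on that array, whereas those of Mmp8, Fcnb and Olfm4 were highest on the treated array of day 10. Slpi, an inhibitor of elastase, had 1698.6 and 975.7 in delta MET + EGFRi livers and 603.3 and 935.7 in control livers (limma adjusted p = 0.449). The formyl peptide receptor Fpr2 had 1150.8 and 636.7 against 542.1 and 546.1 (adjusted p = 0.483). Cd177, a surface partner of proteinase 3 in human neutrophils, had 34.5 and 167.4 in delta MET + EGFRi livers and 26.5 and 20.0 in control livers, over the floor on the treated array of day 10 alone. Some other genes of the granule and mature neutrophil lists were not higher at both days. Mmp9 had 277.9 and 449.6 in delta MET + EGFRi livers against 520.2 and 442.3 in control livers. Fcnb had 621.5 and 1004.9 against 926.3 and 743.4. Trem1 had 347.5 and 72.9 against 349.3 and 261.9, and Clec4e 29.6 and 107.5 against 72.3 and 237.6.

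The erythroid anion exchanger gene Slc4a1 had 521.3 and 574.8 in delta MET + EGFRi livers against 60.1 and 51.9 in control livers, at least 8.04-fold and 8.87-fold, whereas Alas2, which starts haem synthesis in erythroid cells, had 1043.1 and 1977.1 against 3970.7 and 3735.3 (limma adjusted p = 0.166). These are values from single arrays of pooled RNA, and no test or explanation is attached to them.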
